A study of Mus musculus with 12 samples.

Results

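The genes described here are 10 that serve antigen presentation to CD4 T cells, measured in the skin of mice with and without Cdc42 in the basal epidermis and with and without zinc oxide nanoparticles (ZnO NPs). They were taken by name from the 52636 genes of the count table, and all 10 passed the filter on low counts that left 18822 genes for testing. H2-Aa, H2-Ab1 and H2-Eb1 encode chains of the MHC class II molecules of the mouse, Cd74 the invariant chain, H2-DMa a chain of the peptide exchanger H2-DM, and Ciita the transcriptional coactivator that class II genes depend on. Cd207 encodes langerin, the lectin of Langerhans cells, Itgax encodes CD11c, a surface integrin of dendritic cells, and Cd80 and Cd86 encode the ligands of CD28 and CTLA-4 on T cells.

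Skin of 12 C57BL/6 mice (C57BL/6J in the study's methods) aged 3 months was sequenced in bulk on day 14, with 3 mice in each of 4 groups. WT mice have functional Cdc42 and KO mice are Cdc42 loxp/loxp carrying K5-Cre, in which the keratin 5 promoter limits the deletion to basal keratinocytes and cells that descend from them, so that the Cdc42 of other skin cells is left. WT and KO mice were given vehicle alone, normal saline thickened with HPMC, and WT+ZnO NPs and KO+ZnO NPs received ZnO NPs on the skin. Each library held between 21076320 and 28867802 counts.

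Professional antigen-presenting cells load peptides from ingested protein onto MHC class II molecules. The invariant chain occupies the groove of a new molecule until cathepsins degrade it, and H2-DM then exchanges the remaining fragment for peptide. In resting epidermis the cells known for class II, langerin and CD11c are Langerhans cells, which depend on IL-34 and TGF-beta, and the dermis holds further dendritic cells and macrophages. CD80 and CD86 deliver the costimulatory signal that a T cell needs beside its antigen.

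The Cdc42 transcript, given in CPM (counts relative to the size of the library, which TMM factors had scaled), was read first as a check of the labels. It was 606, 628 and 616 CPM in the WT libraries, 415, 464 and 440 in the KO libraries, 311, 350 and 317 in those labelled WT+ZnO NPs and 365, 453 and 314 in those labelled KO+ZnO NPs. The WT+ZnO NPs-labelled libraries thus held less Cdc42 transcript than the WT libraries and less than the KO libraries, which goes against their label, and both groups given ZnO NPs are named by their label throughout. Bulk skin also holds cells whose Cdc42 is left in KO mice, and the part of cell composition in these levels was not tested. Transcripts of 4 Y-linked genes were summed to 192 CPM or more in all WT+ZnO NPs-labelled libraries, in KO replicate 1 and in the KO+ZnO NPs-labelled replicate 1, and to 0.0504 CPM or less in the other 7. The methods give the sex of the KO mice as female, which the Y-linked transcripts of a KO library and of a KO+ZnO NPs-labelled library go against. Keratinocyte markers together reached 6126 to 26272 CPM over the 12 libraries. Markers of the growing hair follicle summed to between 4.32 and 8.07 CPM in WT and to between 18.0 and 11613 in KO, and those of skeletal muscle ranged from 1562 to 20825 CPM over all libraries.

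On GRCm38, 4 of the genes lie in the class II region of chromosome 17. These are H2-DMa (ENSMUSG00000037649, chr17:34119541-34139101, plus strand), H2-Ab1 (ENSMUSG00000073421, chr17:34257689-34269419, plus), H2-Aa (ENSMUSG00000036594, chr17:34282744-34287823, minus) and H2-Eb1 (ENSMUSG00000060586, chr17:34305867-34316674, plus). The others are Cd74 (ENSMUSG00000024610, plus strand), Ciita (ENSMUSG00000022504, chr16:10480059-10528418, plus), Cd207 (ENSMUSG00000034783, chr6:83671215-83677857, minus), Itgax (ENSMUSG00000030789, chr7:128129547-128150657, plus), Cd80 (ENSMUSG00000075122, chr16:38455561-38496335, plus) and Cd86 (ENSMUSG00000022901, chr16:36603869-36666081, minus). Values are counts over all annotated exons of each gene. Exons of H2-DMa, Ciita and Cd74 overlap Brd2, Dexi and Mir5107, and 8.02% of the 50-base stretches of Itgax transcripts also occur in its paralog Itgad, so the counts of these genes are less certain.

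Class II promoters share an X box, bound by RFX factors, and a Y box, bound by NF-Y, and CIITA acts through the complex on them. RefSeq promoter windows, 300 bases each with 250 before the start, were matched for H2-Aa, H2-Eb1, H2-DMa, Cd207, Itgax and Cd80. The letters searched were GATTGG for the Y box and AACNNATG for the X box, on both strands, and the second were chosen with these promoters in view. The stretches shown are the 120 bases before the start of 2 of the members, because both genes moved together in these data, and of H2-DMb1 and H2-Ob, which encode partners in peptide loading. Capitals mark both sets of letters where they lie on the strand of the gene, and positions are those of GRCm38.p6.
H2-Aa (chr17:34287824-34287943, minus strand): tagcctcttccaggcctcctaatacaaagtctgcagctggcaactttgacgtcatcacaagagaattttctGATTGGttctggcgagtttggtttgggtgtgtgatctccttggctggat
H2-Eb1 (chr17:34305747-34305866, plus strand): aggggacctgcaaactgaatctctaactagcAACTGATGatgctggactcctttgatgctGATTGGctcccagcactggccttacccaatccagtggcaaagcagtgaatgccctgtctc
H2-DMb1 (chr17:34153071-34153190, plus strand): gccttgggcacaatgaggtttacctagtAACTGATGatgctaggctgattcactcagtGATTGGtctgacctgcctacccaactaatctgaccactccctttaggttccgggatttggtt
H2-Ob (chr17:34238785-34238904, plus strand): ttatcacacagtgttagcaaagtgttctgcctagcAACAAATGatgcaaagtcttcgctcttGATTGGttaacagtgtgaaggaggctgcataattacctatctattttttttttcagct
GATTGG begins 49 bases before the start in H2-Aa, 60 in H2-Eb1, 62 in H2-DMb1 and 58 in H2-Ob. The X letters followed within 60 bases by the Y letters on 1 strand were found in 49 of 32851 windows (0.149%), and H2-Eb1, H2-DMb1, H2-DMb2, H2-Ob and H2-Eb2 were among them. These are 1 of the 6 members and 4 of the 16 other genes of class II loading and regulation that had a window. GATTGG alone was found in 16.1% of windows on either strand, and of the 6 members with a window it was found in H2-Aa, H2-Eb1 and 1 of 2 windows of H2-DMa. A match describes the letters of the window and not binding.

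In the KO libraries H2-Eb1, Cd74 and Itgax were called higher than in WT by edgeR, and no member was called lower. Fitted differences were above 0 for 8 of the 10, and 3 of 10 were called higher by edgeR's quasi-likelihood test at an adjusted p below 0.05, against 4.61% of all genes tested. At an unadjusted p below 0.05 there were 7 in either direction, and the share of all genes at that p was not counted. DESeq2 called 6 higher and 1 lower, and of all genes it called 3082 in either direction, against 1540 by edgeR. The median log2 fold change of the 10 was 1.01, against 0.01 for all genes. In bulk skin, more cells of a type and more RNA per cell cannot be told apart, and this holds for every value below. Of the leukocyte lists, 5 of 11 T cell markers were called higher in the same comparison, while 1 of 7 pan-leukocyte and 1 of 11 macrophage markers were called lower, against 3.58% of all genes. T cell markers were positive in 11 of 11, with a median of 1.21. Pan-leukocyte and macrophage markers were positive in 0 of 7 and 0 of 11, with medians of -0.70 and -0.77, and DESeq2 called 2 and 3 lower. Other lists moved as well. Of 6 growing hair follicle markers 5 were called higher, with a median log2 fold change of 10.7. Of 8 keratinocyte markers, all positive with a median of 0.83, edgeR called 1 higher and DESeq2 4, and 6 fibroblast markers had a median of 1.42, with none called by edgeR, 4 at an unadjusted p below 0.05 and 3 called by DESeq2. Lower by the fit were 5 of 6 skeletal muscle markers, with a median of -1.11 and 1 called, and 5 of 5 adipocyte markers, with a median of -0.99, none called by edgeR, 1 at an unadjusted p below 0.05 and 1 called by DESeq2. The part of any of these lists in the members' levels was not tested.

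Itgax showed the widest difference of the 10. It was at 16.7, 13.7 and 11.6 CPM in WT and at 40.9, 191 and 156 CPM in KO, a log2 fold change of 3.20 (SE 0.56, edgeR adjusted p = 0.00917, n = 3 each). All KO libraries lay above all WT libraries, and KO replicate 1 stood well below the other two. Without WT replicate 2 its adjusted p was 0.0519, the only one of 21 alternative settings in which the call was lost.

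H2-Eb1, the class II beta chain of I-E, was at 401, 233 and 315 CPM in WT and at 516, 688 and 764 in KO (log2 fold change 1.05, SE 0.28, edgeR adjusted p = 0.0427). Cd74 was at 823, 482 and 677 CPM in WT and at 1102, 1534 and 1564 in KO (1.08, SE 0.29, adjusted p = 0.0475). For both genes the groups did not overlap. H2-Aa, the I-A alpha chain, was at 444, 228.5 and 333 CPM in WT and at 552, 764 and 821 in KO, and its difference of 1.09 missed the threshold (SE 0.31, edgeR adjusted p = 0.0556). H2-Ab1, the I-A beta chain, was at 523, 297 and 419 CPM in WT and at 650, 865 and 921 in KO (0.97, SE 0.28, adjusted p = 0.0584).

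Ciita was at 23.9, 13.8 and 21.4 CPM in WT and at 32.1, 48.5 and 49.8 in KO, with the groups apart and a log2 difference of 1.14 that did not pass (SE 0.40, edgeR adjusted p = 0.103). H2-DMa, at 64.8, 32.2 and 57.5 CPM in WT and 59.8, 86.1 and 72.8 in KO, overlapped between the groups (0.50, adjusted p = 0.249). Cd207 also overlapped, at 35.5, 11.7 and 16.3 CPM in WT against 32.1, 41.3 and 38.4 in KO (0.82, adjusted p = 0.337). WT replicate 1 held about as much langerin transcript as the KO libraries, and the other WT libraries held less.

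Neither costimulatory ligand passed in this comparison, and both fitted differences were below 0, that of Cd86 near 0. Cd80 was at 5.79, 6.07 and 5.91 CPM in WT and at 2.47, 3.33 and 3.52 in KO, with every KO library below every WT library and a log2 difference of -0.93 that did not pass (SE 0.37, edgeR adjusted p = 0.141). Cd86 was at 18.0, 24.5 and 21.6 CPM in WT and at 16.2, 23.8 and 20.2 in KO (-0.09, SE 0.33, adjusted p = 0.896). The calls of H2-Eb1 and Cd74 were lost when any 1 WT or KO library was left out, when the WT+ZnO NPs-labelled replicate 1 or KO+ZnO NPs replicate 1 was, and with Y-linked transcripts as a covariate. That of Cd74 was also lost with RLE factors for scaling (1.07, edgeR adjusted p = 0.0513), and over the 12 fits without 1 library 0 to 5 members were called. The differences themselves stayed near the main values, between 0.87 and 1.26 for H2-Eb1 and between 0.90 and 1.27 for Cd74 over all 21 alternative settings, with 1.11 and 1.15 under the Y-linked covariate. The member that DESeq2 called lower was Cd80, and the libraries without Y-linked transcripts alone gave 1 call by edgeR, Itgax (log2 fold change 3.63, edgeR adjusted p = 0.0111).

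**Figure D1:**
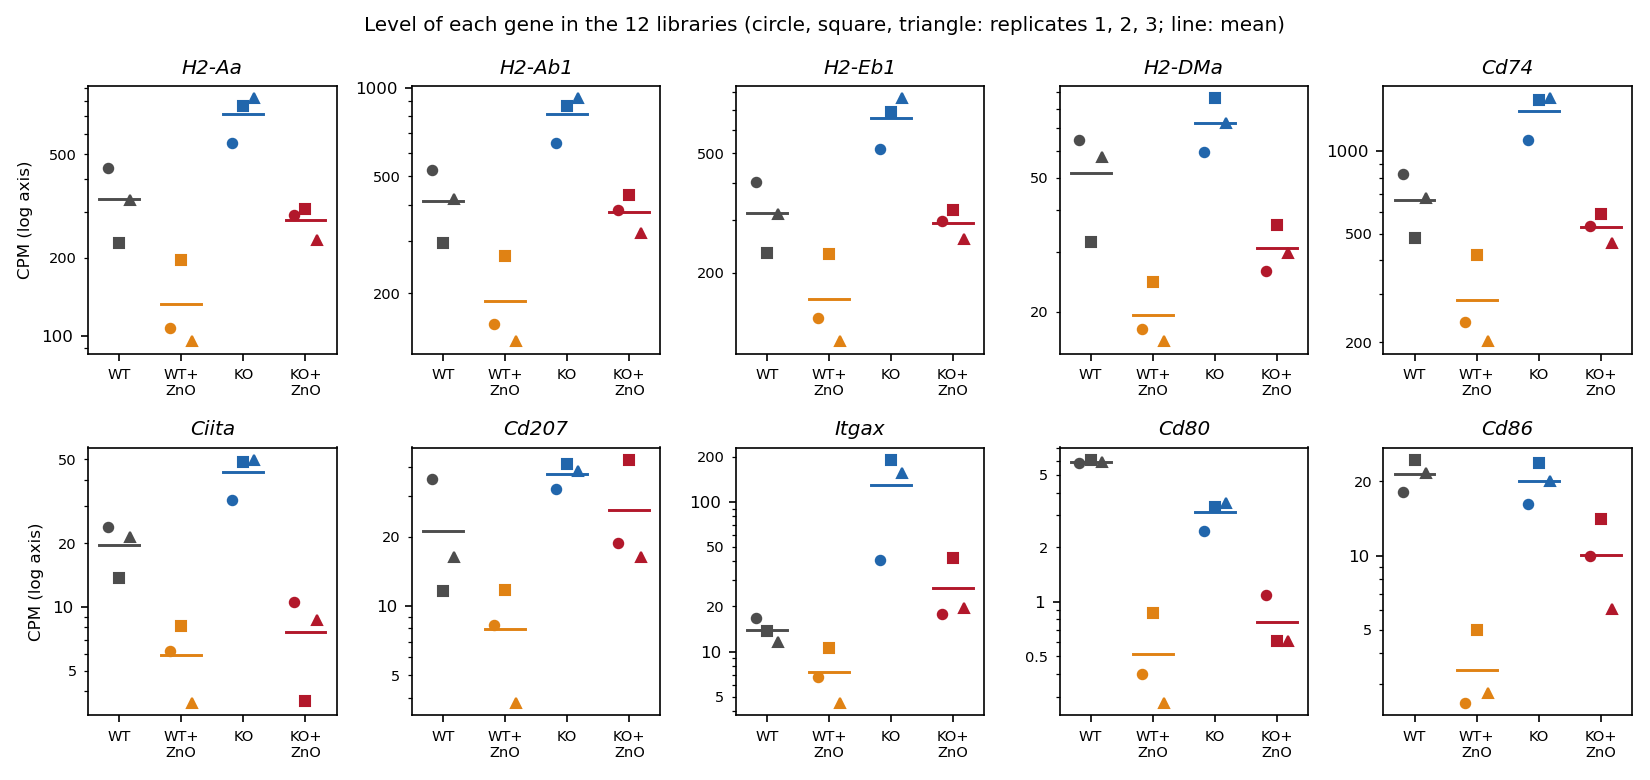
Level of each of the 10 genes in CPM on a log axis in the 12 libraries, with replicates 1, 2 and 3 as circle, square and triangle and the group mean as a line. KO has the highest mean for 8 of the genes and WT for Cd80 and Cd86, and the WT+ZnO NPs-labelled libraries have the lowest mean for every gene.

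In the WT+ZnO NPs-labelled libraries the members were lower than in WT almost throughout. By edgeR 9 of 10 were called lower, all but Itgax, against 22.1% of all genes tested that were called lower in this comparison. The median log2 fold change of the 10 was -1.37 and that of all genes 0.06. The widest falls were those of the costimulatory ligands, followed by Ciita, and the class II chains and Cd74 fell by the least among those called.

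Cd80 was at 0.400, 0.868 and 0.277 CPM in the WT+ZnO NPs-labelled libraries, from 10, 19 and 7 counts, far below the WT range of 5.79 to 6.07 CPM (log2 fold change -3.52, SE 0.42, edgeR adjusted p = 0.000139). Cd86 was at 2.52, 4.98 and 2.77 CPM against 18.0 to 24.5 in WT (-2.64, SE 0.35, adjusted p = 0.000254). Both calls held in every alternative setting in which the gene was tested. Ciita was at 6.16, 8.13 and 3.52 CPM, below the lowest WT library at 13.8 CPM (-1.73, SE 0.41, edgeR adjusted p = 0.00698).

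Of the class II chains, H2-Aa was at 108, 196 and 95.4 CPM in the WT+ZnO NPs-labelled libraries, below all WT libraries (log2 fold change -1.34, SE 0.31, edgeR adjusted p = 0.00634). H2-Ab1 was at 158, 268 and 137 CPM (-1.14, SE 0.28, adjusted p = 0.00873) and H2-Eb1 at 141, 231.5 and 118 CPM (-0.95, SE 0.28, adjusted p = 0.0177). The call of H2-Eb1 was lost without WT replicate 1 (-0.75, edgeR adjusted p = 0.0707) and without WT+ZnO NPs replicate 1 (-0.86, adjusted p = 0.0597) or 3 (-0.76, adjusted p = 0.0711). In all 3 genes replicate 2 was the highest of its group and came near the lowest WT library, also replicate 2. Cd74, at 238, 417 and 201 CPM, showed the same order (-1.21, SE 0.29, edgeR adjusted p = 0.00764), and H2-DMa was at 17.8, 24.5 and 16.3 CPM (-1.40, SE 0.26, adjusted p = 0.00202).

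Cd207 was at 8.28, 11.7 and 3.80 CPM, and its highest library reached that of the lowest WT library (log2 fold change -1.42, SE 0.51, edgeR adjusted p = 0.0456). This call was lost in 9 of 20 alternative settings, among them the fits without WT replicate 1 or 3, without WT+ZnO NPs replicate 1 or 3 and without each of the KO libraries. Itgax was at 6.80, 10.5 and 4.55 CPM, below all WT libraries, and did not pass (-0.95, SE 0.53, adjusted p = 0.173). With Y-linked transcripts as a covariate 2 of the 9 calls held, Cd80 and Cd86. The 7 others stayed below 0, with Ciita at -1.84, H2-Aa at -1.14, H2-DMa at -1.03, Cd74 at -0.98, Cd207 and H2-Ab1 at -0.93 each and H2-Eb1 at -0.72. Every library labelled WT+ZnO NPs and no WT library held these transcripts, so within this pair of groups both cannot be told apart.

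By median log2 fold change, pan-leukocyte and macrophage markers lay further below 0 than the members in the same libraries, and T cell markers less far. These medians were not tested against each other. Pan-leukocyte markers together reached 1341 to 1787 CPM in WT and 112 to 210 CPM in the WT+ZnO NPs-labelled libraries, with 7 of 7 called lower and a median log2 fold change of -3.13. Macrophage markers summed to between 4414 and 5750 CPM and to between 269 and 585 CPM, with 10 of 11 called lower and a median of -3.88. Of 11 T cell markers 3 were called lower, with a median of -0.47, and their sums of 43.3 to 90.1 CPM in WT and 48.1 to 57.7 CPM overlapped. Hair follicle markers went the other way, from at most 8.07 CPM to between 671 and 4316 CPM. Of 8 keratinocyte markers 4 were called lower and 2 higher, with a median of -1.95, and their sums of 7758 to 11929 CPM in WT and 6126 to 10248 CPM overlapped. Of 6 fibroblast markers 2 were called lower and 1 higher, with a median of -0.43. Adipocyte markers summed to 4501 to 6458 CPM in WT and 637 to 1379 CPM, with 4 of 5 called lower and a median of -2.67. Skeletal muscle markers were positive in 6 of 6, with a median of 1.07, of which edgeR called 0 and DESeq2 1. The part of any of these lists in the members' fall was not tested.

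The KO+ZnO NPs-labelled libraries were compared with KO to ask for the difference with ZnO NPs in skin with a defective barrier. Here edgeR called 8 of 10 members lower, all but Cd207 and Cd86, against 8.09% of all genes tested. DESeq2 called 9 members lower, Cd86 among them (-1.01, DESeq2 adjusted p = 0.021), and of all genes it called 4372 in either direction. The median log2 fold change was -1.30 for the 10 and 0.01 for all genes. Since KO also serves the comparison with WT, a high or low KO library moves both.

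Ciita fell by the most. It was at 10.5, 3.58 and 8.71 CPM in the KO+ZnO NPs-labelled libraries against 32.1, 48.5 and 49.8 in KO (log2 fold change -2.51, SE 0.42, edgeR adjusted p = 0.0083), and its call held in all 21 alternative settings. Itgax was at 17.8, 42.4 and 19.4 CPM, and its highest library just passed the lowest KO library at 40.9 CPM (-2.29, SE 0.54, edgeR adjusted p = 0.0222). This call was lost in 4 of 21 alternative settings, with only the groups compared (-2.31, edgeR adjusted p = 0.0806) and without KO replicate 2 or 3 or KO+ZnO NPs replicate 3. Cd80 was at 1.09, 0.605 and 0.610 CPM, below every KO library (-2.01, SE 0.40, adjusted p = 0.0126).

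The class II chains fell by similar amounts. H2-Aa was at 293, 309 and 234 CPM (log2 fold change -1.35, SE 0.31, edgeR adjusted p = 0.0206), H2-Ab1 at 383, 432 and 321 (-1.10, SE 0.28, adjusted p = 0.030) and H2-Eb1 at 297, 325 and 260 (-1.16, SE 0.28, adjusted p = 0.023). For all 3 the KO+ZnO NPs-labelled libraries lay below all KO libraries and close together. Cd74 was at 531, 588 and 460 CPM (-1.41, SE 0.30, edgeR adjusted p = 0.0152) and H2-DMa at 26.4, 36.1 and 30.0 CPM (-1.24, SE 0.26, adjusted p = 0.0156), both below all KO libraries.

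Cd86 was at 9.95, 14.1 and 6.05 CPM, also below all KO libraries, and missed the threshold (log2 fold change -1.001, SE 0.33, edgeR adjusted p = 0.064). Cd207 was at 18.7, 43.2 and 16.3 CPM (-0.52, SE 0.50, adjusted p = 0.504), with replicate 2 above every KO library. Without KO replicate 2 only the call of Ciita was left of the 8, and without KO replicate 3 or KO+ZnO NPs replicate 3 there were 4 each. The call of H2-Ab1 was lost without any 1 of the KO+ZnO NPs libraries and that of H2-Eb1 also without replicate 2 of them. Among the libraries without Y-linked transcripts, 2 in each group, the same 8 members were called, and between the 2 libraries with these transcripts all 10 members were lower in that labelled KO+ZnO NPs.

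Pan-leukocyte markers together reached 628 to 1339 CPM in KO and 237 to 291 CPM in the KO+ZnO NPs-labelled libraries, with 7 of 7 called lower. Of the macrophage markers 9 of 11, and of the T cell markers 7 of 11, were called lower as well. Hair follicle markers, at 18.0 to 11613 CPM and 171 to 8265 CPM, did not separate these groups. Skeletal muscle markers were higher by the fit in 6 of 6, with a median of 1.96, of which edgeR called 1 and DESeq2 5, and their sums of 1562 to 5287 CPM in KO and 3045 to 16435 CPM overlapped. The part of the leukocyte and muscle markers in the members' fall was not tested.

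Between the libraries given ZnO NPs, those labelled KO+ZnO NPs stood higher than those labelled WT+ZnO NPs in all 10 members by the fitted log2 fold change, from 0.36 for Ciita to 1.86 for Itgax. Only Cd86 passed, at 9.95, 14.1 and 6.05 CPM against 2.52, 4.98 and 2.77 (1.55, SE 0.34, edgeR adjusted p = 0.0416). That is 1 of 10, against 2.13% of all genes called higher. Ciita and Cd80 overlapped between the groups, and the libraries of the other members did not. The share of all genes that do not overlap between these groups was not counted. DESeq2 called 7 members, and the call of Cd86 was lost in 13 of 21 alternative settings, among them the fits that left out a WT or a KO library, without WT+ZnO NPs replicate 1 or 3, without KO+ZnO NPs replicate 1 or 2, and within the libraries that held Y-linked transcripts, where 3 WT+ZnO NPs-labelled libraries stood against a single one labelled KO+ZnO NPs that is assumed to vary like the others. Its difference lay between 1.21 and 1.92 over all 21 settings, and at 1.54 in the last. Pan-leukocyte markers were positive in 7 of 7, with a median of 0.88, and macrophage markers in 11 of 11, with a median of 1.12, beside a median of 0.95 for the members. Of these markers edgeR called none, with 5 and 9 at an unadjusted p below 0.05, and DESeq2 called 3 and 5. Keratinocyte markers were positive in 8 of 8, with a median of 1.27, of which edgeR called 1 higher and DESeq2 3. Of 11 T cell markers 2 were called higher, with a median of 0.25, and adipocyte markers had a median of 1.32, with none of 5 called by edgeR, 2 at an unadjusted p below 0.05 and 1 called by DESeq2. The part of these lists in the members' difference was not tested.

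Whether the difference with ZnO NPs itself differed between the genotypes of the labels was tested as an interaction, which rests on the WT+ZnO NPs-labelled libraries whose Cdc42 level goes against that label. No member was called, with 2 at an unadjusted p below 0.05 by edgeR and 2 called by DESeq2, while 8.68% of all genes tested were called by edgeR. The 2 were the costimulatory ligands. Their estimates, neither of which passed, were 1.64 on the log2 scale for Cd86 (SE 0.47, edgeR adjusted p = 0.0539) and 1.52 for Cd80 (SE 0.55, adjusted p = 0.108). The interaction of H2-Aa was -0.02 (SE 0.43) and that of H2-Ab1 0.04 (SE 0.40), both within 1 SE of 0. Of the pan-leukocyte markers 3 of 7 and of the macrophage markers 4 of 11 were called with a positive interaction. Itgax gave -1.34 (SE 0.74, edgeR adjusted p = 0.270) and Ciita -0.78 (SE 0.57, adjusted p = 0.403).

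**Figure D2:**
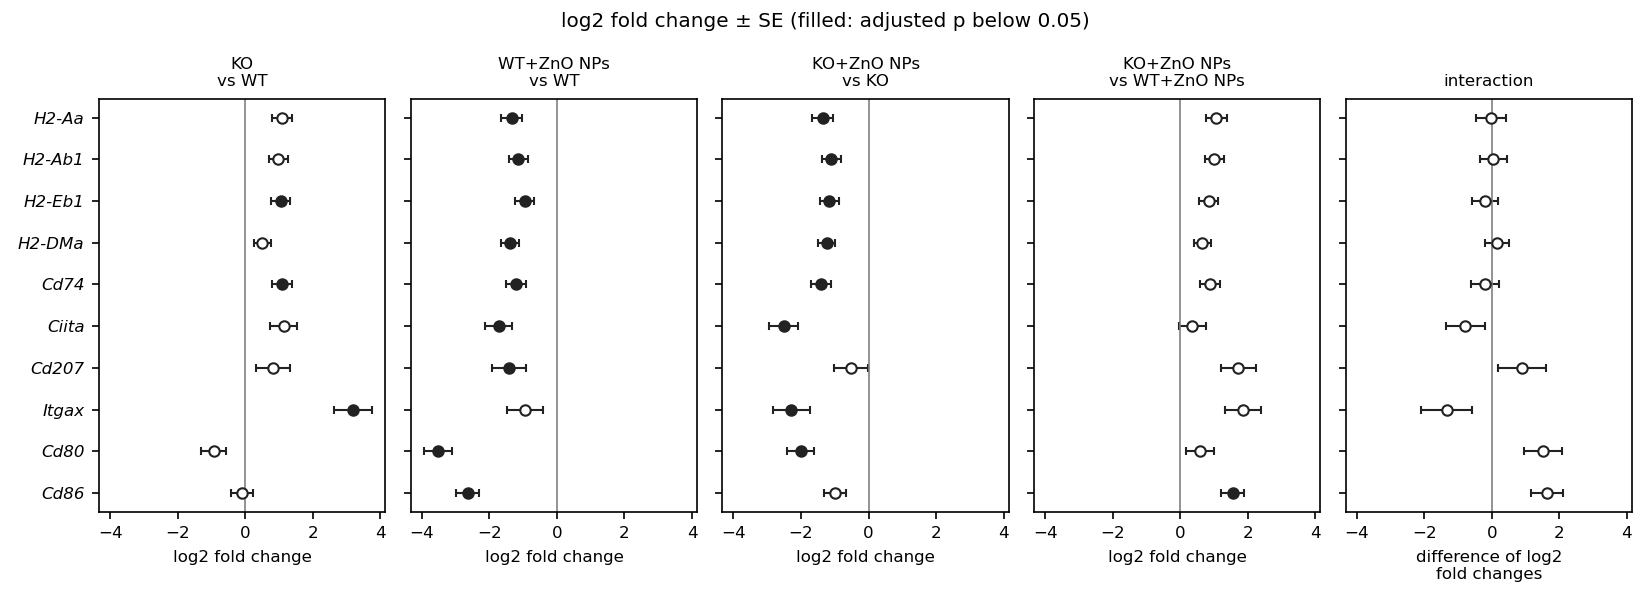
Fitted log2 fold change with its standard error for the 10 genes in the 4 comparisons, and the difference of the 2 ZnO NP comparisons (interaction) at the right, with filled points for an adjusted p below 0.05. The members lie left of 0 in both ZnO NP comparisons, and Itgax at 3.20 is the highest of the KO comparison, where Cd80 at -0.93 lies on the other side.

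The class II chains kept nearly fixed proportions to each other over the 12 libraries. Levels are compared here per kilobase of exon. The ratio of H2-Aa to H2-Ab1 was 0.544 ± 0.027 in WT (SD, n = 3), 0.475 ± 0.017 in the WT+ZnO NPs-labelled libraries, 0.592 ± 0.015 in KO and 0.498 ± 0.018 in those labelled KO+ZnO NPs. The ratio of Cd74 to H2-Ab1 was 2.45 ± 0.042, 2.31 ± 0.068, 2.64 ± 0.068 and 2.13 ± 0.052 in the same order. In each of these ratios the WT+ZnO NPs-labelled libraries lay below WT and those labelled KO+ZnO NPs below KO, without overlap. An exact permutation test of 3 against 3 libraries cannot give a two-sided p below 0.1.

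H2-Eb1 to H2-Ab1 was 1.01 ± 0.022 in WT and 1.16 ± 0.024 in the WT+ZnO NPs-labelled libraries, and 1.07 ± 0.027 in KO and 1.03 ± 0.037 in those labelled KO+ZnO NPs. The groups of the first pair did not overlap and those of the second did. The pseudogene H2-Ea-ps, the C57BL/6 form of the I-E alpha chain gene, had 0 counts in every library, which allows at most between 0.105 and 0.151 CPM per library, for counting error only. The I-E beta transcript was thus about as abundant as that of I-A beta where no count of the I-E alpha gene was found.

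Ciita did not keep a fixed proportion to its target. The ratio of H2-Ab1 to Ciita was 78.1 ± 4.6 in WT and 70.0 ± 4.7 in KO, close together within each group. It was 121 ± 25 in the WT+ZnO NPs-labelled libraries, and 135, 448 and 137 in those labelled KO+ZnO NPs. Every library given ZnO NPs thus held more H2-Ab1 per Ciita transcript than every library given vehicle, and replicate 2 of KO+ZnO NPs stood apart from the other two with a Ciita level of 3.58 CPM.

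**Figure D3:**
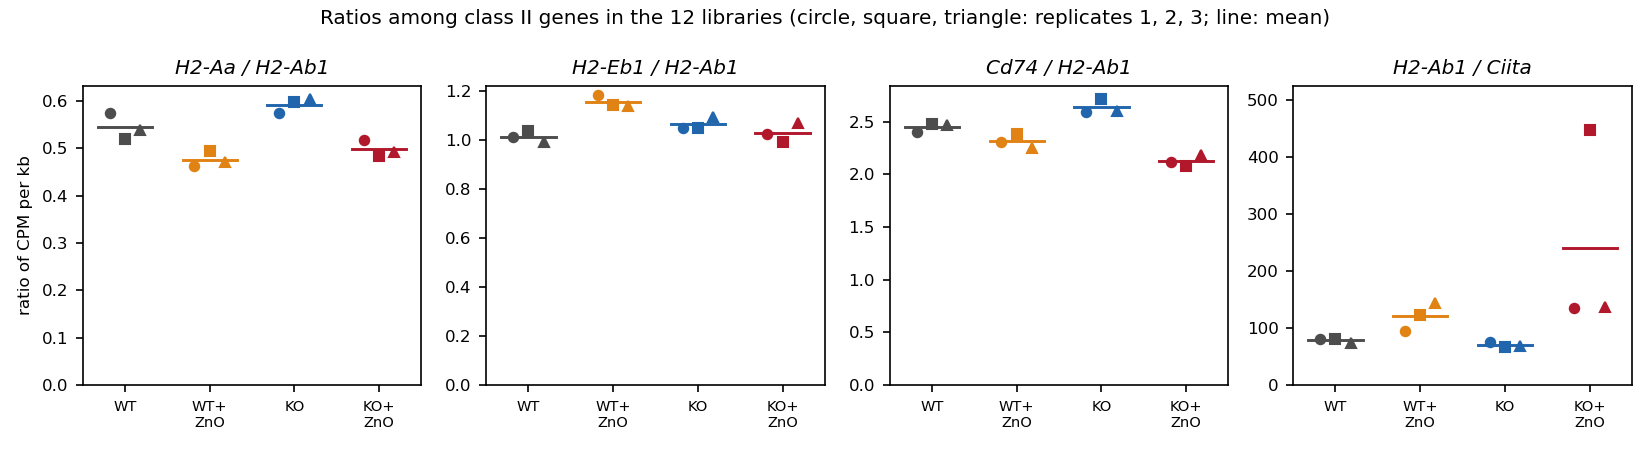
Ratios of levels per kilobase among class II genes in the 12 libraries on axes that start at 0, with replicates as circle, square and triangle and the group mean as a line. H2-Aa, H2-Eb1 and Cd74 keep within a narrow band relative to H2-Ab1, while H2-Ab1 relative to Ciita runs from 66.1 in a KO library to 448 in a library labelled KO+ZnO NPs.

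Set against Ptprc, the gene of the leukocyte surface protein CD45, 9 of the 10 members had their lowest group mean in WT, and Cd80 had its highest there. Ptprc itself was at 227, 176 and 166 CPM in WT, 18.9, 33.6 and 12.6 in the WT+ZnO NPs-labelled libraries, 82.0, 184 and 176 in KO and 29.6, 27.5 and 30.3 in those labelled KO+ZnO NPs. Ptprc was thus lower in both groups given ZnO NPs than in their vehicle groups, and any gene that fell by less rises in this ratio. The share of all genes that do so was not counted. H2-Ab1 per Ptprc, both per kilobase, was 15.5 ± 3.1 in WT, 64.6 ± 11.2 in the WT+ZnO NPs-labelled libraries, 42.4 ± 12.3 in KO and 93.2 ± 18.1 in those labelled KO+ZnO NPs. It was lowest in WT, and it was higher in every WT+ZnO NPs-labelled library than in every WT library and in every KO+ZnO NPs-labelled library than in every KO library. H2-Aa, H2-Eb1, H2-DMa and Cd74 per Ptprc showed the same separation in both pairs, and the mean of H2-DMa ran from 1.44 in WT to 5.65 in the KO+ZnO NPs-labelled libraries.

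Cd207 per Ptprc was 1.88, 0.799 and 1.18 in WT and 5.28, 4.19 and 3.62 in the WT+ZnO NPs-labelled libraries. It was 4.71, 2.70 and 2.63 in KO and 7.60, 18.9 and 6.48 in those labelled KO+ZnO NPs. The langerin transcript was thus higher relative to CD45 in the libraries given ZnO NPs, without overlap in either pair of groups. In CPM the fitted difference of Cd207 was below 0 in both pairs, and Ptprc fell by more. Itgax per Ptprc was 0.282 ± 0.015 in WT, 1.31 ± 0.10 in the WT+ZnO NPs-labelled libraries, 3.08 ± 1.06 in KO and 3.53 ± 2.03 in those labelled KO+ZnO NPs, and the last 2 groups overlapped. Cd86 per Ptprc overlapped between WT, at 0.583 ± 0.162, and the WT+ZnO NPs-labelled libraries, at 0.836 ± 0.230. In KO it was 0.992, 0.647 and 0.573 and in those labelled KO+ZnO NPs 1.68, 2.57 and 0.999, which did not overlap. Cd80 per Ptprc was 0.158 ± 0.027 in WT, 0.114 ± 0.012 in the WT+ZnO NPs-labelled libraries, 0.112 ± 0.032 in KO and 0.130 ± 0.045 in those labelled KO+ZnO NPs, and all groups overlapped. Ciita per Ptprc was 0.200 ± 0.048 in WT, and the 3 other groups, at 0.543 ± 0.081, 0.6004 ± 0.132 and 0.494 ± 0.222 in the order of the figure axis, overlapped with each other.

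**Figure D4:**
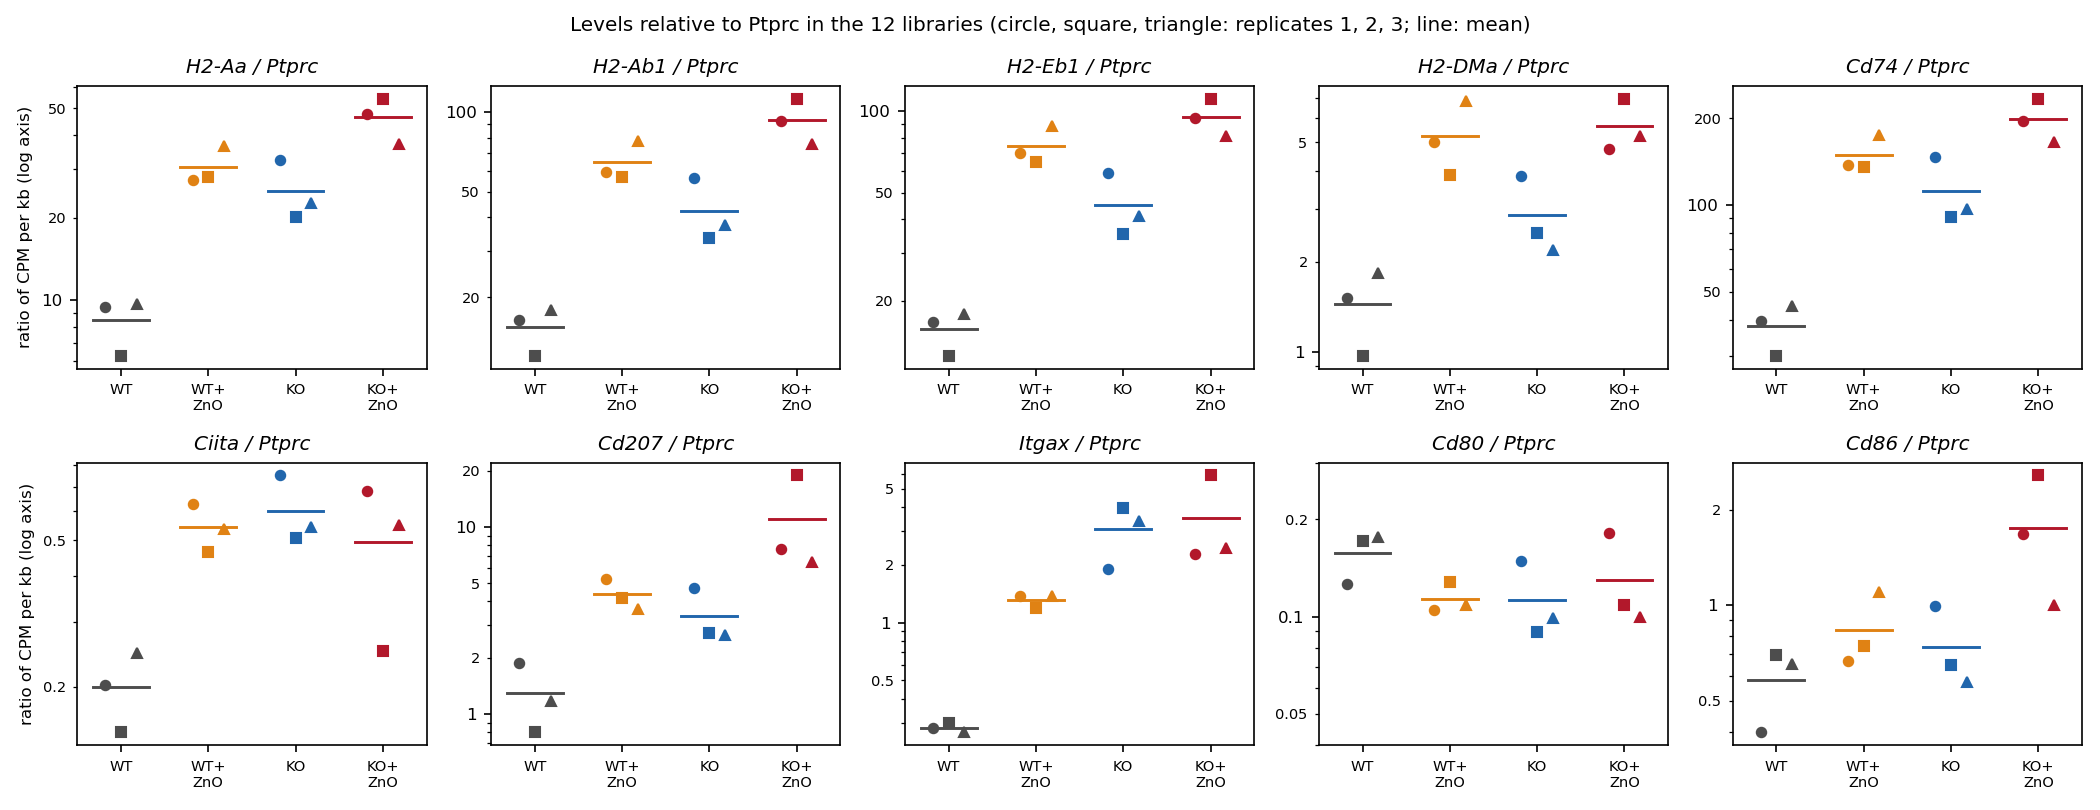
Level per kilobase of each of the 10 genes divided by that of Ptprc (CD45) in the 12 libraries, on log axes, with replicates as circle, square and triangle and the group mean as a line. WT has the lowest mean for all but Cd80, where it has the highest, and H2-Ab1 per Ptprc reaches a mean of 93.2 in the KO+ZnO NPs-labelled libraries.

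The 2 costimulatory ligands kept no fixed proportion. Cd86 per Cd80, both per kilobase, was 3.15, 4.09 and 3.70 in WT and 6.66, 7.23 and 5.79 in KO, which did not overlap. It was 6.37, 5.80 and 10.1 in the WT+ZnO NPs-labelled libraries and 9.22, 23.6 and 10.04 in those labelled KO+ZnO NPs, where Cd80 rested on few counts. WT was thus the group with the most Cd80 relative to Cd86.

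The other genes of class II loading and regulation were taken as a list of 21, of which 20 were tested. In the WT+ZnO NPs-labelled libraries against WT, 13 of 20 were called lower and 3 higher, with a median log2 fold change of -1.17 against 0.06 for all genes. H2-DMb1, a partner chain of H2-DMa, fell by 1.01 on the log2 scale (SE 0.19, edgeR adjusted p = 0.00222) and Ctss, the cathepsin that trims the invariant chain, by 3.91 (SE 0.55, adjusted p = 0.000369). The strongest by p were the legumain gene Lgmn (-3.64), Ctsb (-2.35) and March1, whose product ubiquitinates class II molecules (-3.31). The 3 that rose, against 20.8% of all genes called higher in this comparison, were Rfxap, Nfyb and Nfyc, named after their values were seen, and Rfx5 did not pass (0.23, edgeR adjusted p = 0.371).

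In the KO+ZnO NPs-labelled libraries against KO, 10 of 20 were called lower and none higher by edgeR (15 had an unadjusted p below 0.05 in either direction, and DESeq2 called 10 lower and 2 higher). H2-DMb1 (-1.33, SE 0.19, edgeR adjusted p = 0.00574), Ctsb (-1.32) and Ifi30, the lysosomal thiol reductase (-1.04), led by p, and Ctss fell by 2.19 (SE 0.51, adjusted p = 0.0217). In KO against WT 1 of 20 was called, Lgmn as lower (-1.31, SE 0.32, edgeR adjusted p = 0.0349), and the median was 0.03 against 0.01 for all genes. H2-DMb1 was at 60.01, 37.4 and 51.7 CPM in WT and at 60.9, 82.4 and 85.4 in KO (0.62, edgeR adjusted p = 0.0726). H2-Oa, a chain of H2-DO, which restrains H2-DM, had 47 counts or fewer in each library.

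Interferon gamma is the classical inducer of Ciita. Its own gene, Ifng, had 0 to 7 counts per library and was left out by the filter. Of 14 tested genes of its receptor, signalling and response, 9 were called lower in the WT+ZnO NPs-labelled libraries, led by Gbp3 (log2 fold change -3.44), Ifngr1 (-1.51) and Jak1 (-1.48). In those labelled KO+ZnO NPs against KO 1 was called lower, Irf8 (-1.74, SE 0.39, edgeR adjusted p = 0.0191). At an unadjusted p below 0.05 there were 6 in either direction, and DESeq2 called 3 lower. In KO against WT 2 were called lower, Gbp3 (-2.16, SE 0.31, edgeR adjusted p = 0.00334) and Gbp2 (-1.82, SE 0.33, adjusted p = 0.011), the side opposite to that of the class II genes. The interaction was called in 4 of 14, with Gbp3 at 2.83, Gbp2 at 2.13 and Ifngr1 at 1.26.

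MHC class I presentation serves CD8 T cells. In KO against WT all 14 class I genes had a fitted difference below 0, with a median of -0.42, and 2 were called lower, Psmb10 (-1.20, SE 0.18, edgeR adjusted p = 0.00386) and Tapbp (-0.57, SE 0.15, adjusted p = 0.0488), while DESeq2 called 3. In the WT+ZnO NPs-labelled libraries 11 of 14 class I genes were called lower, led by the proteasome subunit gene Psmb10 (-1.85), Erap1 (-1.40) and Tapbp (-1.33). In those labelled KO+ZnO NPs against KO edgeR called none, with 2 at an unadjusted p below 0.05 and 1 called by DESeq2, and the median was -0.23. The interaction was called in 6 of 14, all positive, with Psmb10 at 1.67 (SE 0.25, edgeR adjusted p = 0.00699), Erap1 at 1.00 (SE 0.19, adjusted p = 0.0167) and Psmb8 at 1.35 (SE 0.29, adjusted p = 0.0228).

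Of 32 other Langerhans and dendritic cell genes, 18 were called lower and 2 higher in the WT+ZnO NPs-labelled libraries, 13 lower in those labelled KO+ZnO NPs against KO, and 6 higher in KO against WT. DESeq2 called 19 lower and 2 higher, 19 lower, and 8 higher and 3 lower in the same order. The 6 included Runx3 (2.004, SE 0.24, edgeR adjusted p = 0.00128), a transcription factor that Langerhans cells need and T cells also use, Ccl17 (3.19, SE 0.57, adjusted p = 0.0103), a chemokine of dendritic cells, and Tgfbr1 (0.89, SE 0.16, adjusted p = 0.0096). Epcam, which Langerhans cells share with keratinocytes, was at 135, 78.4 and 100 CPM in WT and at 187, 189 and 136 in KO (0.71, edgeR adjusted p = 0.105). Flt3, the receptor on dendritic cell precursors, was at 7.51, 5.34 and 4.63 CPM in WT and at 7.57, 7.03 and 10.8 in KO (0.54, adjusted p = 0.552), and it fell in both ZnO NP comparisons (-1.56 and -1.87). Ccr7, the receptor for migration to lymph nodes, did not pass in any comparison.

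Il34, which encodes the epidermal cytokine that maintains Langerhans cells, was at 34.1, 26.6 and 26.7 CPM in WT, 17.5, 12.2 and 12.6 in the WT+ZnO NPs-labelled libraries, 38.5, 53.3 and 35.4 in KO and 27.3, 27.1 and 30.8 in those labelled KO+ZnO NPs. It fell in the WT+ZnO NPs-labelled libraries against WT (-1.05, SE 0.19, edgeR adjusted p = 0.00182), while the difference of KO+ZnO NPs from KO did not pass (-0.58, SE 0.19, adjusted p = 0.0658). Between the libraries given ZnO NPs it was higher in those labelled KO+ZnO NPs (1.01, SE 0.19, edgeR adjusted p = 0.0343). Cd40, the receptor through which T cells license presenting cells, was at 17.7, 15.4 and 13.6 CPM in WT and 1.84, 1.10 and 1.66 in the WT+ZnO NPs-labelled libraries (-3.34, SE 0.24, edgeR adjusted p = 1.7e-05). In KO it was at 10.2, 14.4 and 11.4 CPM and in those labelled KO+ZnO NPs at 4.10, 4.08 and 3.83 (-1.58, SE 0.22, adjusted p = 0.00556). Its fall was smaller in the KO pair of groups, with an interaction of 1.76 (SE 0.31, edgeR adjusted p = 0.0122), the sign that the estimates of Cd86 and Cd80 had.

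Of 20 other costimulation and checkpoint genes tested, 3 were called higher in KO against WT, which were Cd276 (1.62, SE 0.21, edgeR adjusted p = 0.00176), Pdcd1lg2, the gene of the PD-1 ligand PD-L2 (2.89, SE 0.58, adjusted p = 0.0161) and Tnfrsf4 (1.24, SE 0.28, adjusted p = 0.0274). At an unadjusted p below 0.05 there were 12, and DESeq2 called 7 higher and 1 lower. Pdcd1lg2 fell by 4.66 on the log2 scale in the KO+ZnO NPs-labelled libraries against KO (SE 0.66, edgeR adjusted p = 0.00556), where 8 of 20 fell by edgeR and 13 by DESeq2. In the WT+ZnO NPs-labelled libraries 8 fell, with Cd48 first by p (-3.88), and 1 rose. Neither receptor of CD80 and CD86 on T cells passed in KO against WT. Cd28 was at 5.54, 2.18 and 5.18 CPM in WT and 1.999, 5.38 and 6.25 in KO (0.08, adjusted p = 0.947), and Ctla4 was at 2.60, 0.948 and 1.32 CPM in WT and 6.17, 10.4 and 10.04 in KO, with the groups apart (2.45, SE 0.69, edgeR adjusted p = 0.0536).

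**Figure D5:**
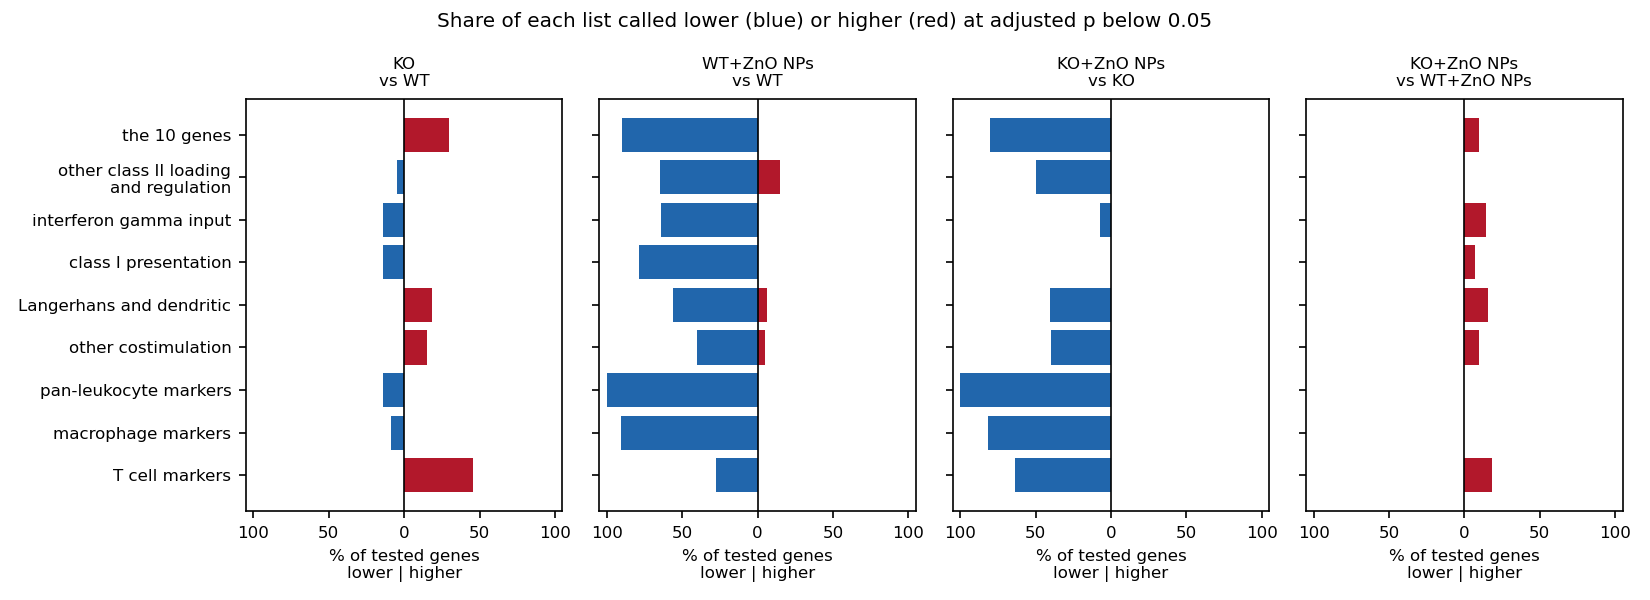
Percent of the tested genes of each list called lower (left of 0, blue) or higher (right of 0, red) by edgeR in the 4 comparisons. In both ZnO NP comparisons the bar of the 10 genes points left, at 9 and 8 of 10, beside 7 of 7 pan-leukocyte markers, and class I presentation has a bar in the comparison with WT and none in that with KO.

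Over the 12 libraries the members followed their mean profile (the mean of their z scores of log2 CPM) with a Pearson r of 0.98 to 0.99 for H2-Aa, H2-Ab1, H2-Eb1 and Cd74 and of 0.77 for Cd80, the lowest. H2-Aa and H2-Ab1 had an r of 0.998, and Itgax and Cd80 the lowest of all pairs at 0.409. Among genes that are no members, those most like the mean profile were H2-DMb2 (r = 0.980), Dhx58os, Grap2, Prkcb, Cd72, Cd22, Spats2l and Sema3a, all at or above 0.973. Within groups, after the group means were taken off, the r of the same 4 genes with the mean profile was 0.98 to 0.99, and the lowest was that of Ciita at 0.52, with Cd80 at 0.73. The libraries share their groups and each member is part of the mean, so these values are a description.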

How the data were processed

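Skin RNA of 12 mice in 4 groups of 3, taken from the sample labels, was analysed. The authors isolated RNA with TRIzol, and deposited a table of raw read counts for every gene in each sample. The labels name HISAT2 2.0.5 and mm10, while the paper's text names STAR and HTSeq, and the kit and sequencer also differ between these sources. The use of strand in the counting and the annotation release are not given in the sources used here. Reads shared by overlapping genes or paralogs may be lost or misplaced by counting. Of 52636 Ensembl identifiers 52403 were matched to names of GENCODE M21 on GRCm38, and 0 named no gene. Counts of replicates were further apart than sampling noise (chi-square per degree of freedom 37.4 to 162).

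Counts were tested in R 4.3.3 with the quasi-likelihood test of edgeR 4.0.16 (filterByExpr, TMM factors, 1 coefficient per group, all 12 libraries, common dispersion 0.109), with Benjamini-Hochberg adjustment over the 18822 genes tested. Standard errors were obtained from the F statistic and are approximate. CPM were scaled by TMM factors, and levels per kilobase used the length of all annotated exons. The study's methods allot the mice at random, 3 to a group, and the labels number the libraries of a group without naming a mouse, litter or batch, so p-values measure the spread between these samples. Intervals and floors (3 counts) cover counting error only. The steps were tested on simulated data.

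The members and gene lists were chosen with earlier results of these data known. All 10 members were named in every comparison, and of each other list up to 3 called genes with the smallest p, beside genes fixed for their role and the 8 genes most like the members' mean. B cell, fibroblast, adipocyte and keratinocyte marker lists were read as well: of B cell markers 3 of 4 were called lower in the WT+ZnO NPs-labelled libraries and 2 of 4 in those labelled KO+ZnO NPs against KO, and of adipocyte markers 4 of 5 were called lower in the former. In the latter 0 of 8 keratinocyte markers were called by edgeR or DESeq2, with 2 at an unadjusted p below 0.05, and 1 of 6 fibroblast markers was called lower. The settings varied were scaling (RLE factors or library size only), the tool (DESeq2 1.42.0), the filter (none, or 10 counts in each library), a block for the replicate number, Y-linked transcripts as a covariate (a sum above 10 CPM), only the groups compared, and leaving out each library. Fits within libraries with or without Y-linked transcripts were chosen after seeing the data.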

Additional observations from a re-analysis of the deposited data

How the results depend on the processing

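Over all settings the direction of each member held in the 4 comparisons, except that Itgax in the WT+ZnO NPs-labelled libraries against WT turned to 0.46 with the Y-linked covariate and that Cd86 in KO against WT, near 0, turned to 0.040 within the libraries without Y-linked transcripts and ranged from -0.22 to 0.038 when single libraries were left out. The cause of these and of the changes below was not tested. Interactions near 0 changed sign: H2-Aa to 0.013 with the replicate block and between -0.27 and 0.37 without single libraries, H2-Ab1 to -0.11 with library size only, to -0.16 with the Y-linked covariate and between -0.16 and 0.39, H2-DMa to -0.21 with the Y-linked covariate and between -0.041 and 0.41, H2-Eb1 between -0.41 and 0.13 and Cd74 between -0.40 and 0.18.

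Members called in KO against WT numbered 7 with DESeq2 and with only the groups compared, 5 with at least 10 counts in every library, 1 with the replicate block, 1 with the Y-linked covariate, 1 within the libraries without Y-linked transcripts and 0 to 5 without single libraries. In the WT+ZnO NPs-labelled libraries against WT they numbered 2 with the Y-linked covariate and 7 to 9 without single libraries, and in those labelled KO+ZnO NPs against KO 1 to 9. Between the libraries given ZnO NPs they numbered 7 with DESeq2, 0 with the Y-linked covariate, with only the groups compared and within the libraries with Y-linked transcripts, where a lone KO+ZnO NPs library is assumed to vary like the others, and 0 to 4 without single libraries. For the interaction they numbered 2 with DESeq2, 1 with at least 10 counts, 1 with the replicate block and 0 to 2 without single libraries.

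Counts over all genes in KO against WT (1540) were 3082 with DESeq2, 962 with the Y-linked covariate, 2794 with only the groups compared, 694 without Y-bearing libraries and 377 to 2060 without single libraries. In WT+ZnO NPs against WT (8085) they were 3896 with the Y-linked covariate and 5942 to 9095. In KO+ZnO NPs against KO (2759) they were 4372 with DESeq2, 571 with only the groups compared and 451 to 3195. Between the libraries given ZnO NPs (618) they were 2421 with DESeq2, 284 without the filter, 1 with the Y-linked covariate, 0 with only the groups compared, 3 within Y-bearing libraries and 1 to 1609. For the interaction (1633) they were 3205 with DESeq2, 1086 without the filter, 125 with the Y-linked covariate and 461 to 1646. Library size only moved the median of all genes from 0.06 to 0.16 in WT+ZnO NPs against WT, from 0.04 to -0.11 between the libraries given ZnO NPs and from 0.02 to -0.13 for the interaction.

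The replicate numbers carry no stated pairing. Same-numbered libraries correlated at -0.34 to 0.43, over 0.1 in 4 of 18 pairs, and differently numbered ones at -0.41 to 0.37, over 0.1 in 5 of 36, so the block result is given here only. Cd80, with 7 to 19 counts in the WT+ZnO NPs-labelled libraries, was limited by depth and was not tested with at least 10 counts in every library.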
